A study of Mus musculus with 8 samples.

Results

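The nuclear-encoded subunits of the respiratory chain were examined in E-cadherin high (E-cadHI) and E-cadherin low (E-cadLO) tumor cells of breast cancer brain metastases (BCBM). The members are all protein-coding genes of the count table whose symbol starts with Nduf, Uqcr, Cox4 to Cox8 or Atp5, together with Sdha, Sdhb, Sdhc, Sdhd and Cyc1, which gave 94 of 31894 genes on 19 chromosomes. They comprise 36 genes of complex I, 4 of complex II, 9 of complex III, 20 of complex IV and 15 of complex V, and 10 assembly factors that the name prefixes take in. Of the 94 members, 88 had enough counts to be tested, among 13598 genes tested. The 6 others, all of complex IV, are described with the isoforms of complex IV.

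The tumor cells came from mammary carcinomas of PyMT mice, in which the mouse mammary tumor virus promoter drives the polyoma middle-T antigen, and they carried E-cadherin fused to mCFP. Tumor pieces were passaged serially in the brain, organoids were derived from the resulting brain tumors, and BCBM grew after intracranial injection of these organoids into FVB mice, whose age the labels do not give and whose genotype they give as wild type. From the BCBM of each of 4 mice (57, 58, 67 and 70), 1 E-cadHI and 1 E-cadLO population was sorted, and bulk mRNA was sequenced, so that there were 8 libraries, 4 per population. The labels name no treatment. All p-values rest on these 4 mice. Without the mouse as a block they treat the 8 libraries as independent, and with it they compare the populations within each mouse.

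The respiratory chain in the inner mitochondrial membrane passes electrons from NADH and succinate to oxygen and uses the energy to pump protons, which drive ATP synthesis. Complexes I, III, IV and V hold subunits from both the nuclear and the mitochondrial genome, whereas complex II is entirely nuclear-encoded. The nuclear genes lie scattered over the genome, and many of them are known targets of NRF1, of ETS family factors such as GABP, and of YY1.

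In E-cadLO cells, most members were lower than in E-cadHI cells of the same mouse, by an amount that differed between mice. The median log2 ratio of E-cadLO to E-cadHI over the 88 tested members was -0.99, -0.07, -0.36 and -0.02 in mice 57, 58, 67 and 70. Over all 13598 genes tested, these medians were 0.02, 0.00, 0.02 and 0.07. The ratio was below 0 for 86 of the 88 members in mouse 57 and for 83 in mouse 67, but only for 54 in mouse 58 and 47 in mouse 70. Among all genes, the shares below 0 in these mice were 48.3%, 49.9%, 49.0% and 44.7% in the order of their numbers. The members also lay close together, since the middle 50% of their ratios spanned 0.46, 0.27, 0.23 and 0.27 log2 units in mice 57, 58, 67 and 70, against 1.36, 0.58, 0.91 and 0.74 for all genes. This was not particular to the members, as the 81 cytosolic ribosomal protein genes spanned 0.28, 0.24, 0.18 and 0.20. Ratios were formed from normalized CPM (counts scaled to the total of the library and by edgeR's TMM factor) plus 0.5, and fold changes are given as E-cadLO relative to E-cadHI throughout.

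A ratio below 0 in all 4 mice was found for 32 of the 88 members, or 36.4%, where 14.2% of all genes tested had one. A ratio above 0 in all 4 mice was found for 1 member, Cox6a2, where 16.8% of all genes had one. The 32 members were 12 of 36 in complex I, 2 of 4 in complex II, 6 of 9 in complex III, 1 of 14 tested in complex IV, 9 of 15 in complex V and 2 of 10 assembly factors. In the fit over all 8 libraries, 83 of the 88 members had a log2 fold change below 0, as did 44.9% of all genes, and the median was -0.29 against 0.06. With mouse 70 left out, 52 members were below 0 in each remaining mouse (21.6% of all genes), and without mouse 57 the median log2 fold change was -0.17.

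**Figure D1:**
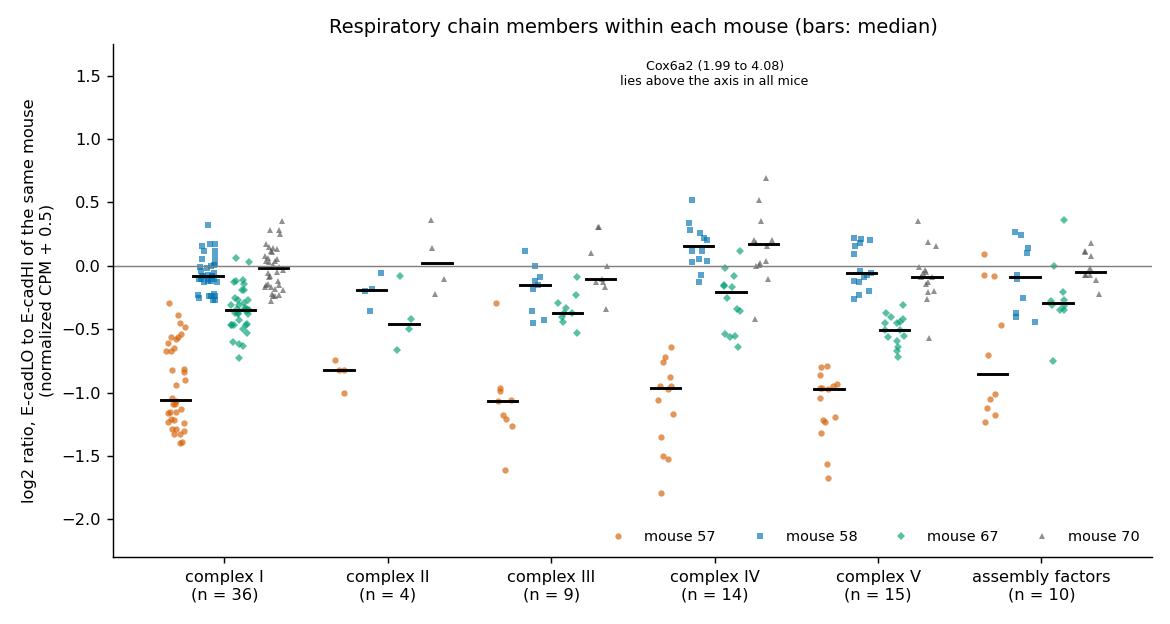
Log2 ratio of E-cadLO to E-cadHI normalized CPM plus 0.5 for every tested member, by complex and mouse, where each point is 1 gene and black bars are medians. All complexes lie well below 0 in mouse 57 (medians -1.07 to -0.82) and are centred near 0 in mouse 70 (medians -0.10 to 0.17). Cox6a2 lies above the plotted range.

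No single member reached an adjusted p under 0.05 in edgeR's quasi-likelihood test without the mouse as a block. The count was 0 in either direction, as it was for all genes (0.0% called higher and 0.0% called lower). At an unadjusted p under 0.05, 4 members were lower (Cyc1, Sdhd, Atp5g3 and Atp5g1) and 1 was higher (Cox6a2), where 5.81% of all genes were lower and 8.16% higher. With the mouse as a replicate block, 12 members were lower at an unadjusted p under 0.05 (7.33% of all genes) and 1 was higher (12.3% of all genes). In that fit, 1 member was called higher at an adjusted p under 0.05, again Cox6a2, where 0.728% of all genes were called higher and 0.0% lower. DESeq2 without a block called Cox6a2 higher (2.19% of all genes) and no member lower (0.449% of all genes). With the block, DESeq2 called Cox6a2 higher (7.57% of all genes) and Atp5g3 lower (1.65% of all genes). Every E-cadLO library was below every E-cadHI library for 2 members, Uqcrb and Atp5g3 (4.2% of all genes), and above every E-cadHI library for 1, Cox6a2 (3.9% of all genes).

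The share of each library's counts held by the members, a scale that uses the library total and no TMM factor, was also lower in E-cadLO cells. The 94 members took 2.36%, 1.96%, 2.26% and 2.44% of the counts in E-cadHI libraries of mice 57, 58, 67 and 70, and 1.48%, 1.76%, 1.79% and 2.32% in E-cadLO libraries. The difference was below 0 in 4 of 4 mice, with a mean of -0.415 ± 0.338 percentage points (SD, n = 4). It was -0.873, -0.202, -0.463 and -0.123 in mice 57, 58, 67 and 70. When Gm42418 and the mitochondrially encoded genes were taken out of the total, it was -0.895, -0.0309, -0.393 and -0.103, still below 0 in each mouse. The value nearest 0 was that of mouse 58, whose E-cadLO library had 14.4% of its counts in Gm42418. The groups nevertheless overlapped, since the E-cadLO library of mouse 70 exceeded the E-cadHI libraries of mice 58 and 67. By complex, the share was lower in E-cadLO cells in 4 of 4 mice for complexes I, II, III and V, and in 2 of 4 for complex IV. For complex II in mouse 70 the difference was only -0.00238 percentage points. Without Gm42418 and the mitochondrially encoded genes in the total, it was -0.000503 there and -0.00579 for complex V in mouse 58. In bulk libraries, fewer cells of a type and less RNA per cell cannot be told apart.

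**Figure D2:**
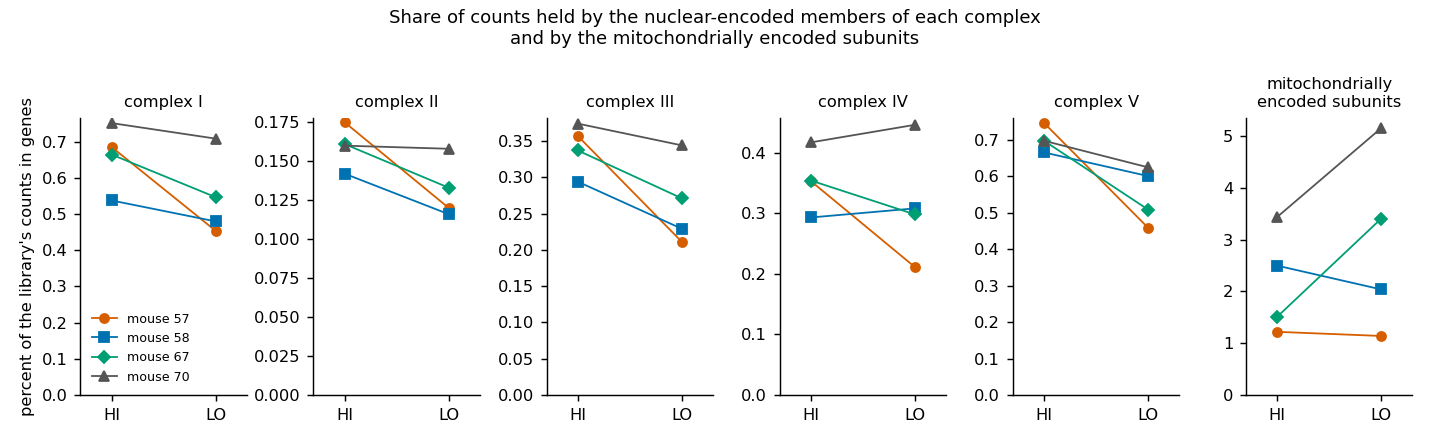
Percent of each library's counts in genes held by the nuclear-encoded members of each complex and by the mitochondrially encoded subunits, with lines joining both populations of a mouse. Complexes I, II, III and V go down in every mouse, though complex II barely does in mouse 70. Complex IV goes up in mice 58 and 70, and the mitochondrially encoded subunits go up in mice 67 and 70.

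Complex I, the NADH dehydrogenase that passes electrons to ubiquinone, had a median log2 ratio of -1.05, -0.08, -0.35 and -0.02 in mice 57, 58, 67 and 70. All 36 members had a fitted log2 fold change below 0, between -0.51 and -0.08, and none was called. The 7 core subunits, which carry the flavin and the iron-sulfur clusters, were below 0 in mice 57, 58 and 67 without exception, with medians of -0.56, -0.12 and -0.33. In mouse 57, the 29 accessory subunits had a median of -1.09, further from 0 than the core subunits.

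Ndufs7, a core subunit that holds an iron-sulfur cluster near the ubiquinone site, had 187, 165, 199 and 224 normalized CPM in E-cadHI libraries of mice 57, 58, 67 and 70 and 83.2, 151, 129 and 189 in E-cadLO libraries. It was lower in each mouse, most in mouse 57, and the groups overlapped. Its log2 fold change was -0.49 (standard error, SE, 0.24, edgeR adjusted p = 0.387). Ndufc2, a small accessory subunit of the membrane arm, had 136, 113, 144 and 151 normalized CPM in E-cadHI libraries and 57.1, 103, 94.5 and 132 in E-cadLO libraries, with the same order in every mouse and a log2 fold change of -0.49 (SE 0.24, edgeR adjusted p = 0.387). The catalytic subunits Ndufv1, which binds NADH, and Ndufs1, which holds iron-sulfur clusters, had log2 fold changes of only -0.22 and -0.13, and both were slightly higher in E-cadLO cells of mouse 70 (log2 ratios 0.01 and 0.28).

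Some complex I promoters hold letters of the NRF1 site. The 100 bases before the annotated starts of a pair of them, chosen after their values were seen, are printed to show it. Both are accessory subunits, and their sequences are from RefSeq (GRCm38.p6). The stretch of Ndufa11 is chr17:56717662-56717761 on the plus strand, and that of Ndufa6 is chr15:82354292-82354391 on the minus strand. Capitals mark GCGCATGC, letters of the NRF1 site, on either strand.
Ndufa11: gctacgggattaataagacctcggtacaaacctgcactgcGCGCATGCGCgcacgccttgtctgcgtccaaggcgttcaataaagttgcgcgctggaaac
Ndufa6: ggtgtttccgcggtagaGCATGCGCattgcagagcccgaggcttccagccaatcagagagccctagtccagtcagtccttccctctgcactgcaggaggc

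In Ndufa11 the letters occur on both strands in overlapping positions, so that the run reads as a palindrome, and Ndufa6 holds them once. Ndufa11 had log2 ratios of -1.23, -0.02, -0.50 and -0.09 in mice 57, 58, 67 and 70, and was thus lower in each mouse, but barely so in mice 58 and 70. Ndufa6 had log2 ratios of -1.15, 0.17, -0.14 and -0.17, and was thus higher in mouse 58.

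Complex II, succinate dehydrogenase, which links the tricarboxylic acid cycle to the chain, had median log2 ratios of -0.82, -0.19, -0.46 and 0.02 in mice 57, 58, 67 and 70. Sdhd, a membrane anchor, had 438, 332, 409 and 413 normalized CPM in E-cadHI libraries of these mice and 219, 259, 289 and 386 in E-cadLO libraries. It was lower in each mouse, and only the E-cadLO library of mouse 70 reached into the E-cadHI range. Its log2 fold change was -0.47 (SE 0.20, edgeR adjusted p = 0.345). Sdhb, the iron-sulfur subunit, was also lower in 4 of 4 mice (log2 fold change -0.41, SE 0.21, edgeR adjusted p = 0.395). Sdha, the flavoprotein that oxidizes succinate, had 694, 579, 592 and 554 normalized CPM in E-cadHI and 392, 513, 561 and 709 in E-cadLO libraries. Mouse 70 was the only one in which it was higher, so the complex's 4 genes did not share 1 direction in that mouse.

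Complex III, the cytochrome bc1 complex, passes electrons from ubiquinol to cytochrome c. Its 9 members were all below 0 in mice 57 and 67, and 8 of 9 were in mouse 58, with medians of -1.07, -0.15, -0.37 and -0.10 in mice 57, 58, 67 and 70. Cyc1, the heme-bearing cytochrome c1, had 556, 535, 494 and 546 normalized CPM in E-cadHI libraries and 280, 398, 342 and 500 in E-cadLO libraries. The E-cadHI libraries lay close together, and of the E-cadLO libraries only that of mouse 70 reached them. Its log2 fold change was -0.49 (SE 0.19, edgeR adjusted p = 0.325).

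Uqcrc1, a large core subunit, had 1340, 937, 1130 and 1300 normalized CPM in E-cadHI and 590, 685, 854 and 1190 in E-cadLO libraries, and a fitted log2 change of -0.50 (SE 0.25, edgeR adjusted p = 0.386). Uqcrfs1, the Rieske iron-sulfur protein, was lower in 4 of 4 mice, with log2 ratios of -0.96, -0.12, -0.29 and -0.17. Uqcrb, an accessory subunit at the ubiquinone site and named here because its groups did not overlap, ranged from 105 to 124 normalized CPM in E-cadHI and from 47.6 to 98.2 in E-cadLO libraries. Uqcrb shares 20.2% of its 65-base stretches of transcript with 4 other genes, so its counts are uncertain. Uqcrq, an accessory subunit, was the only complex III member with a fitted log2 fold change above 0 (0.01).

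The promoters of Uqcr11 and Uqcrh, accessory subunits of complex III, hold the ETS letters and are shown as examples, likewise chosen after their values were seen. Matches were not counted by complex. They lie at chr10:80406831-80406930 and chr4:116075072-116075171, both on the minus strand (RefSeq, GRCm38.p6). Capitals mark CCGGAAGT on either strand.
Uqcr11: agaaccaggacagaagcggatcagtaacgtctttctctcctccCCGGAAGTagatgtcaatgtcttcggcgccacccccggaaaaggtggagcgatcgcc
Uqcrh: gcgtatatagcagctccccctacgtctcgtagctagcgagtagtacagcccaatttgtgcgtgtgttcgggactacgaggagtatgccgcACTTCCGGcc

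Uqcr11 had the lowest ratio of complex III in mouse 57 (-1.61) and was lower in 4 of 4 mice, with 335, 251, 352 and 459 normalized CPM in E-cadHI and 110, 196, 272 and 430 in E-cadLO libraries. Uqcrh had log2 ratios of -1.06, 0.12, -0.37 and 0.10, and was thus lower in mice 57 and 67 only. Promoters of 74 of the 94 members were matched by symbol to the RefSeq table, over windows of 300 bases from 250 before to 50 after the start. The NRF1 letters GCGCATGC stood in 12 of them (16.2%), against 3.05% of 27025 genes. The YY1 letters AAGATGGC stood in 10 (13.5%, against 3.19%) and the ETS letters in 5 (6.76%, against 4.31%). TATAAA, the core of the TATA box, stood in 7 (9.46%, against 15.7%). In all, 26 of the 74 promoters (35.1%) held NRF1, ETS or YY1 letters on either strand, against 9.91% of all genes. These are matches of letters in a window, and binding was not measured.

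Complex IV, cytochrome c oxidase, reduces oxygen to water, and several of its subunits exist as a general isoform and as isoforms of particular tissues. Its 14 tested members had medians of -0.96, 0.16, -0.21 and 0.17 in mice 57, 58, 67 and 70. In mice 58 and 70, 12 of the 14 had a ratio above 0, whereas in mice 57 and 67 only 1 and 2 had. The median over the other complexes lay between -0.19 and -0.06 in mouse 58 and between -0.10 and 0.02 in mouse 70. The mean of the 4 mouse medians was -0.21 ± 0.53 (SD, n = 4) for complex IV, and without mouse 57 it was 0.04. The difference between complex IV and the other complexes was not tested.

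Cox8a, a small general subunit, had 289, 250, 277 and 375 normalized CPM in E-cadHI and 150, 359, 262 and 605 in E-cadLO libraries of mice 57, 58, 67 and 70. It was lower in mouse 57, nearly equal in mouse 67 and higher in mice 58 and 70, so its groups overlapped widely. Cox6c, another small subunit, followed the same pattern, with log2 ratios of -0.64, 0.34, -0.02 and 0.52. Cox4i1, the regulatory subunit that binds ATP, had log2 ratios of -0.76, 0.28, -0.16 and 0.20, and Cox5a, its nuclear-encoded neighbor in the complex, of -0.72, 0.20, -0.55 and 0.20. The fitted log2 fold changes of Cox8a, Cox6c, Cox4i1 and Cox5a were 0.21, 0.14, -0.07 and -0.17, with standard errors of 0.24 to 0.37. The first 3 change sign when a single mouse is left out.

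Ndufa4, named for complex I but known as a subunit of complex IV, was the only complex IV member lower in 4 of 4 mice. It had 477, 366, 462 and 541 normalized CPM in E-cadHI and 137, 335, 296 and 403 in E-cadLO libraries. The E-cadLO library of mouse 57 was far below the rest, and the E-cadLO library of mouse 70 exceeded the E-cadHI library of mouse 58. Its log2 fold change was -0.66 (SE 0.30, edgeR adjusted p = 0.366).

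**Figure D3:**
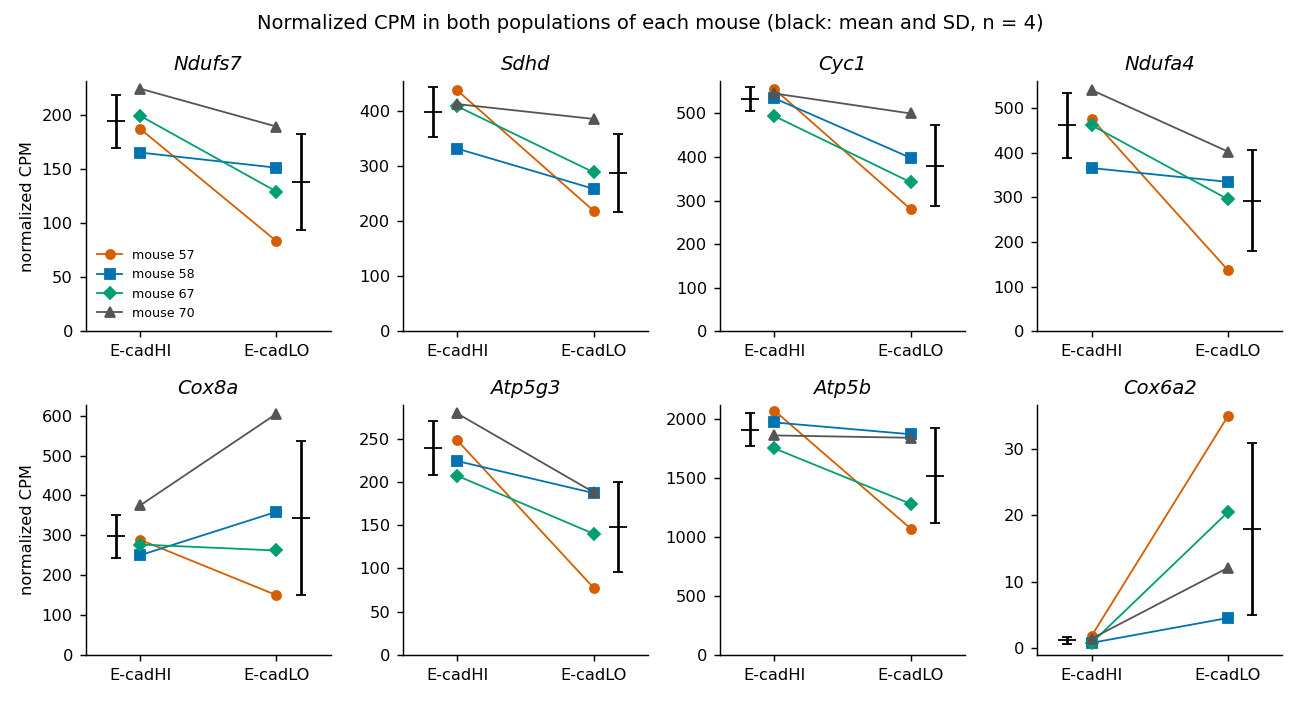
Normalized CPM of 8 members in both populations of each mouse, with lines joining the populations of a mouse and black marks giving mean and SD (n = 4). Ndufs7, Sdhd, Cyc1, Ndufa4, Atp5g3 and Atp5b go down in every mouse, Cox8a goes up in mice 58 and 70, and Cox6a2 goes up in every mouse.

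The isoforms of complex IV that are typical of other tissues or of low oxygen were at low counts, with Cox6a2 as the exception. Cox4i2 and Ndufa4l2, known to be induced by low oxygen, had at most 20 and 6 counts in any library. The heart and muscle isoform Cox8b had at most 31 counts, and the testis isoforms Cox6b2, Cox7b2 and Cox8c had at most 20, 17 and 1. None of these 6 was tested. Cox8b made up at most 0.356% of its counts together with Cox8a, Cox7b2 at most 0.661% with Cox7b, and Cox6b2 at most 0.214% with Cox6b1, each in the E-cadLO library of mouse 70. The general isoform Cox6b1 had log2 ratios of -1.5, -0.07, -0.54 and 0.04. Cox4i2 made up at most 0.135% of its counts with Cox4i1, and Ndufa4l2 at most 0.104% with Ndufa4. The heart and muscle isoform Cox7a1 was tested and ranged from 3.06 to 6.05 normalized CPM in E-cadHI and from 1.78 to 5.02 in E-cadLO libraries, and a fitted log2 change of -0.38 (SE 0.45, edgeR adjusted p = 0.687). Its general partner Cox7a2 (log2 fold change -0.32) and the related supercomplex factor Cox7a2l (-0.09) were at 246 and 65.5 normalized CPM per kb of exon, against 8.14 for Cox7a1.

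Cox6a2, the heart and muscle isoform of the subunit VIa that Cox6a1 encodes elsewhere, had 26, 10, 10 and 16 counts in E-cadHI libraries of mice 57, 58, 67 and 70 and 472, 39, 305 and 174 in E-cadLO libraries. These correspond to 1.81, 0.766, 0.741 and 1.4 normalized CPM in E-cadHI and 35.0, 4.52, 20.5 and 12.1 in E-cadLO libraries. All E-cadLO libraries were above all E-cadHI libraries, with mouse 58 the nearest. The log2 fold change was 3.92 (SE 0.66, edgeR adjusted p = 0.186), and with the replicate block it was 3.71 (SE 0.47, edgeR adjusted p = 0.027). Over all alternatives the adjusted p ranged from 1.9e-12 (DESeq2 with the block) to 0.68. Cox6a2 passed the filter on low counts through its E-cadLO libraries, where it is high.

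Cox6a1 remained the main isoform in all libraries. It had 530, 386, 459 and 635 normalized CPM in E-cadHI and 275, 450, 414 and 812 in E-cadLO libraries. Of the counts of both genes, Cox6a2 made up 0.340%, 0.198%, 0.161% and 0.220% in E-cadHI libraries and 11.3%, 0.994%, 4.71% and 1.47% in E-cadLO libraries. Its share was higher in the E-cadLO library of every mouse, most in mouse 57.

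Cox6a2 (chromosome 7, 128205435 to 128206387, minus strand, GRCm38) lies within Itgad (128154376 to 128223816, plus strand), which encodes the integrin alpha D chain of leukocytes, and 70 of its 680 exon bases are also exon bases of Itgad. The strand setting of the counting is not given in the sources used here, and without strand, reads of both genes cannot be told apart. Itgad had 9, 18, 7 and 4 counts in E-cadHI and 811, 137, 400 and 151 in E-cadLO libraries, so that it was higher in the same libraries. Its log2 fold change with the replicate block was 5.14 (SE 0.55, edgeR adjusted p = 0.0239). The neighboring integrin genes Itgax and Itgam were higher in E-cadLO cells as well, with log2 fold changes of 4.14 and 3.57 in the same fit. Armc5, a gene of the same locus that is not an integrin, had log2 ratios of 3.30, 1.08, 1.23 and 0.42 in mice 57, 58, 67 and 70. Its log2 fold change in that fit was 1.55 (SE 0.51, edgeR adjusted p = 0.185).

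The summed level of 8 muscle and heart markers overlapped between the groups. It was 19.6 to 37.6 normalized CPM in E-cadHI and 18.2 to 55.6 in E-cadLO libraries, most of it from Mb. Only 2 of the 8 markers, Mb and Acta1, had enough counts to be tested. Mb had log2 ratios of 0.48, -0.5, 0.42 and -0.21 in mice 57, 58, 67 and 70, and thus differed in direction. Acta1, the skeletal muscle actin, had ratios of 0.7, 0.58, 0.18 and 1.8. It was at 0.00 to 0.766 normalized CPM in E-cadHI and 0.0671 to 2.16 in E-cadLO libraries. In mouse 67 it was at 0.0671 against 0.00, below the floor of 0.21 CPM in that E-cadLO library, so no difference is shown there. Actc1, the cardiac actin, was at 0 in all libraries except the E-cadHI library of mouse 58 (0.0766). The part that reads of Itgad have in the counts of Cox6a2 was not tested.

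**Figure D4:**
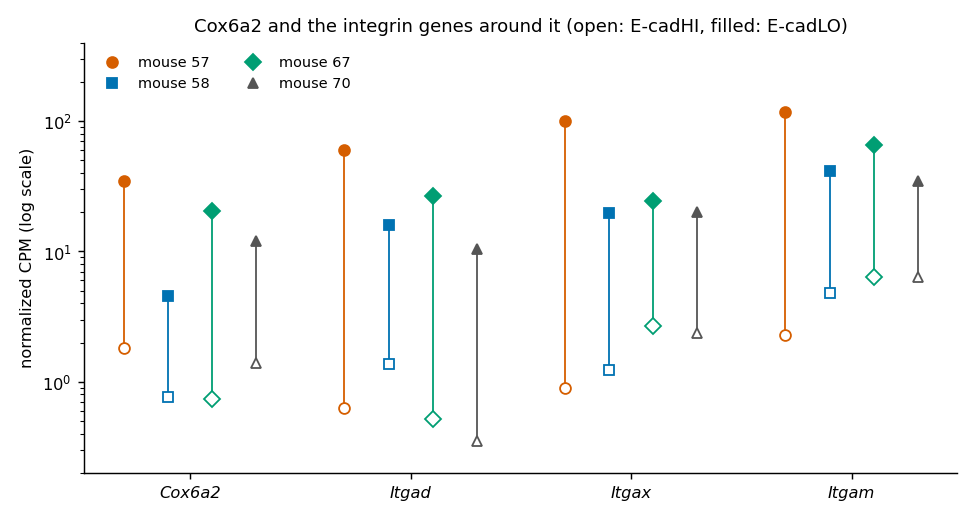
Normalized CPM (log axis) of Cox6a2, of Itgad, in which it lies, and of the neighboring Itgax and Itgam, with open symbols for E-cadHI and filled symbols for E-cadLO libraries of each mouse. All 4 genes are higher in the E-cadLO library of every mouse, and mouse 57 holds the highest E-cadLO value of each.

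Complex V, the ATP synthase, had medians of -0.97, -0.06, -0.51 and -0.09 in mice 57, 58, 67 and 70. All 15 members had a fitted log2 fold change below 0, between -0.69 and -0.22, and all 15 were below 0 in mice 57 and 67. Atp5a1 and Atp5b encode the alpha and beta subunits of the catalytic head. Atp5b had 2070, 1970, 1750 and 1860 normalized CPM in E-cadHI and 1070, 1870, 1280 and 1840 in E-cadLO libraries. It was lower in each mouse, mainly in mice 57 and 67, with log2 ratios of only -0.07 and -0.01 in mice 58 and 70. Atp5a1 had log2 ratios of -0.97, -0.06, -0.67 and -0.09, also furthest below 0 in mice 57 and 67.

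Subunit c, whose ring turns in the membrane as protons pass, is encoded by 3 genes, Atp5g1, Atp5g2 and Atp5g3, which differ in the peptide that targets the protein to mitochondria. Atp5g3 had 248, 224, 207 and 279 normalized CPM in E-cadHI and 77.6, 187, 140 and 188 in E-cadLO libraries. All E-cadLO libraries were below all E-cadHI libraries. At -0.69 (SE 0.27, edgeR adjusted p = 0.321), its fitted log2 change was the lowest of all members, and in DESeq2 with the block it was -0.74 (adjusted p = 0.0465).

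Atp5g1 had 234, 171, 231 and 247 normalized CPM in E-cadHI and 100, 149, 148 and 206 in E-cadLO libraries, and a fitted log2 change of -0.55 (SE 0.23, edgeR adjusted p = 0.337). It was lower in each mouse, and the E-cadLO library of mouse 70 exceeded the E-cadHI library of mouse 58. Atp5g2 had log2 ratios of -1.56, -0.04, -0.72 and -0.14, but 36.8% of its 65-base stretches of transcript occur in other genes, so its counts are uncertain. Of the counts of the 3 genes, Atp5g3 made up 41.8% to 49.4% in E-cadHI and 39.2% to 47.6% in E-cadLO libraries, which overlap.

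**Figure D5:**
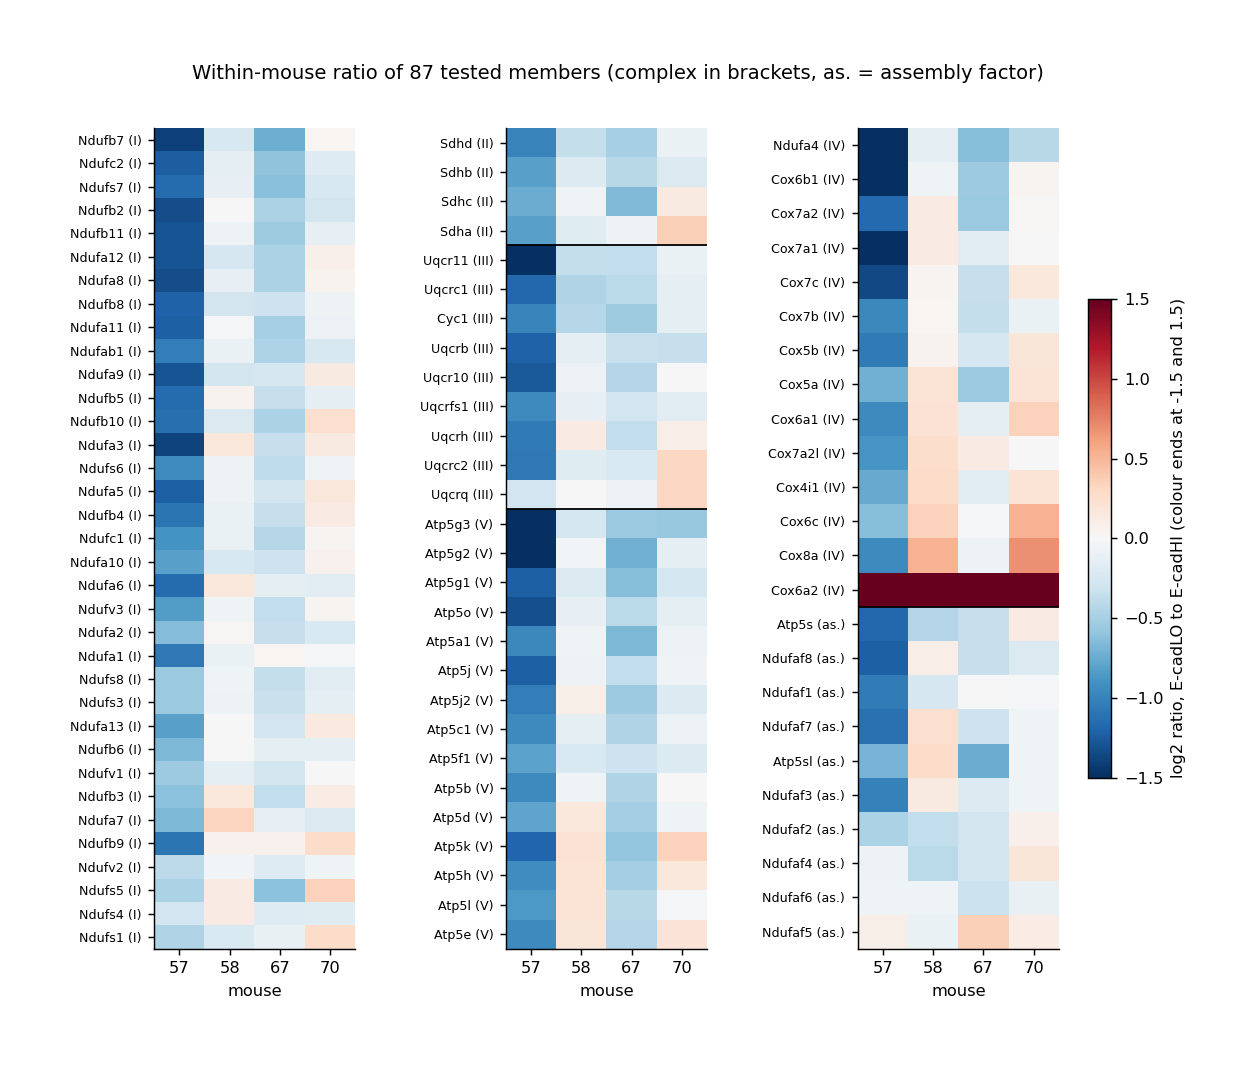
Log2 ratio of E-cadLO to E-cadHI for 87 of the 88 tested members (1 row per gene, complex in brackets, as. for assembly factors) in each of the 4 mice, with blue for lower and red for higher in E-cadLO and the colours ending at -1.5 and 1.5. The mouse 57 column is blue almost throughout (median of the tested members -0.99), the mouse 67 column is paler blue (median -0.36), and mice 58 and 70 are mixed, with red in complex IV.

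The 10 assembly factors, which help to build complex I or are named for complex V but are not subunits, had medians of -0.85, -0.08, -0.30 and -0.04 in mice 57, 58, 67 and 70. Ndufaf5, an assembly factor that modifies a complex I subunit, had a fitted log2 fold change above 0 (0.12), and the other 9 were below 0. Leaving the assembly factors out moved the median log2 fold change of the members from -0.29 to -0.30.

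Levels per length placed Cox6a1 first among all members, with a mean of 706 normalized CPM per kb of exon over the 8 libraries. Medians by complex were 90.8 normalized CPM per kb in complex I, 158 in complex II, 212 in complex III, 112 in complex IV and 97.0 in complex V. The assembly factors had a median of 12.8 and lay lowest.

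The mitochondrially encoded subunits, which join the nuclear-encoded ones in the same complexes, differed in direction between mice. They took 1.22%, 2.50%, 1.51% and 3.44% of the counts in E-cadHI libraries of mice 57, 58, 67 and 70 and 1.14%, 2.04%, 3.41% and 5.16% in E-cadLO libraries. In mouse 67, where 83 of the 88 nuclear-encoded members were lower, the median log2 ratio of the 9 tested mitochondrially encoded genes was 1.05. Of the 13 mitochondrially encoded genes, mt-Nd3, mt-Nd4l, mt-Atp6, mt-Atp8, mt-Co2 and mt-Co3, which every cell uses, were at 0 to 4.52 normalized CPM, beside 3820 to 25800 for mt-Cytb, so the summed mitochondrial counts rest on the others. The count of the nuclear-encoded members per mitochondrially encoded count was 1.93, 0.785, 1.49 and 0.711 in E-cadHI and 1.31, 0.865, 0.525 and 0.450 in E-cadLO libraries. E-cadLO cells had the lower ratio in 3 of 4 mice, with mouse 58 as the exception.

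Other genes of mitochondrial function were compared as lists, in which no gene was called in either direction by edgeR with or without the block. Of 35 tested assembly factors and carriers outside the name rule, 26 had a fitted log2 fold change below 0 (median -0.14). Of these 35, 10 were lower in 4 of 4 mice, where 14.2% of all genes were. Of 13 tricarboxylic acid cycle genes outside complex II, 12 were below 0 (median -0.24), with mouse medians of -0.62, -0.15, -0.34 and 0.07. Of 12 regulators of mitochondrial biogenesis, 10 were above 0 (median 0.15). Among all genes tested, 44.9% were below 0 (median 0.06). At an unadjusted p under 0.05 in edgeR without the block, 3 genes of the first list were lower, where 5.81% of all genes were. None of the second list passed, and 2 of the third were higher, where 8.16% of all genes were.

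The 81 cytosolic ribosomal protein genes, a group of similarly short and abundant mRNAs, had mouse medians of -1.0, 0.21, -0.31 and -0.20 in mice 57, 58, 67 and 70. Their median log2 fold change was -0.29, the same to 2 decimals as that of the respiratory chain members. In mice 57 and 67 the members and the ribosomal protein genes thus had similar medians, and in mouse 58 they lay on opposite sides of 0.

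Depth and markers of other cell types also differed between the libraries. Counts in genes ranged from 9102781 to 15769200 per library, and Gm42418, a transcript that overlaps a ribosomal RNA repeat, took 2.23% to 14.4%, most in the E-cadLO library of mouse 58, where the members had a median log2 ratio of -0.07. Of 12 microglia and macrophage markers, 11 were higher in E-cadLO cells in 4 of 4 mice, with a summed level of 36.2 to 277 normalized CPM in E-cadHI and 157 to 1000 in E-cadLO libraries. The same held for 5 of 7 astrocyte markers (1140 to 3530 and 719 to 9780), 4 of 6 oligodendrocyte markers (552 to 8540 and 1310 to 34200) and 5 of 7 neuron markers (1.11 to 87.9 and 24.7 to 363). Of all genes tested, 16.8% were higher in 4 of 4 mice. The summed astrocyte markers were lower in the E-cadLO library of mouse 57 (1140 and 719) and higher in that of mouse 70 (3530 and 9780). The lower sum in mouse 57 came from Aldoc (1000 and 123). In that mouse, 5 of the 7 astrocyte markers were higher in E-cadLO cells, and their median log2 ratio was 1.87. Fibroblast markers summed to 6.30 to 19.3 in E-cadHI and 15.2 to 1030 in E-cadLO libraries. The highest value was in mouse 57, whose members were also the lowest. Most of it came from the collagen genes Col1a1, Col1a2 and Col3a1 (496, 310 and 180 normalized CPM). Whether fibroblasts or tumor cells gave these collagen counts was not tested.

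Of 5 endothelial markers, 2 were higher in 4 of 4 mice, Cldn5 and Pecam1, as were 3 of 4 erythroid markers (23.5 to 378 and 160 to 742). Pecam1 barely differed in mice 57 and 58 (log2 ratios 0.04 and 0.05). The endothelial sum (40.6 to 74.5 and 42.2 to 91.6) came mostly from Flt1. Its log2 ratios were -0.25, 0.91, 0.2 and 0.3 in mice 57, 58, 67 and 70. Of 4 neutrophil markers the only 1 tested, S100a8, was lower in 4 of 4 mice. It made up most of their sum (15.3 to 23.7 and 6.82 to 16.0). S100a9, Ly6g and Retnlg were at 0 to 1.74 normalized CPM, so a lower neutrophil signal is not shown. The 8 tumor epithelium markers, such as keratins, were detected in all libraries and summed to 7340 to 10100 in E-cadHI and 5450 to 13900 in E-cadLO libraries. In mouse 57, all 8 were lower in E-cadLO cells, with a median log2 ratio of -0.96, where that of the members was -0.99. In mice 58, 67 and 70 the epithelial medians were 0.37, -0.02 and -0.36. Epcam, an epithelial adhesion molecule, was lower in 4 of 4 mice, with log2 ratios of -2.21, -0.04, -0.64 and -0.73. It was the only 1 of the 8 markers lower in every mouse. Cldn4 was lower in mouse 57 (-2.71) and higher in mice 58, 67 and 70 (1.01, 1.54 and 0.87). Krt18 and Krt8 had fitted log2 fold changes of 0.28 and 0.09, and the other 6 markers were below 0. Cdh1, which encodes the E-cadherin that the sort used, was lower in E-cadLO cells in 3 of 4 mice and higher in mouse 58. In no list was a marker at 0 in all E-cadHI libraries. The part of these cell types and of depth in the members' differences was not tested.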

How the data were processed

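Bulk mRNA of sorted E-cadHI and E-cadLO cells was sequenced by the authors as 65-base single reads from TruSeq mRNA libraries, mapped with HISAT2 2.1.0 to GRCm38 and counted per gene. The submitters' processing notes name HTSeq for counting and the study's methods name Icount. The strand setting and the treatment of reads that match several genes are not given in the sources used here. The authors deposited raw counts per gene without normalization. The 365 of 32259 entries without a gene identifier, which held 0.0636% to 0.0954% of a library's counts, were left out.

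The 8 libraries were scaled by TMM, filtered with filterByExpr by population and compared in 1 quasi-likelihood fit of edgeR 4.0.16 under R 4.3.3. P-values of the 13598 genes tested were adjusted by the Benjamini-Hochberg method, with 0.05 as threshold. The SE given for edgeR is the absolute log2 fold change divided by the square root of the test's F statistic. Both populations of a mouse come from the same animal, and their libraries deviated together from the group means (correlation across genes 0.248 to 0.692, at most 0.144 between mice), so values with a replicate block by mouse are given where they change a call or a count. DESeq2 1.42.0, other scalings, filters and pseudocounts, a robust fit and each mouse left out in turn were the alternatives. A count of 3, the floor, corresponds to 0.190 to 0.330 CPM, and covers counting error only. Exon lengths and overlaps are from GENCODE M21 on GRCm38, promoters from RefSeq. Tables were made with Python 3.11, pandas 2.3 and matplotlib 3.10. The fits were also run on simulated data. The simulation held larger changes than nearly all members had and no effect of the mouse, so it does not show how the fits perform here.

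Members and lists were chosen with earlier results of these data known. Named were, per complex, the 2 members with the smallest p without the block, the 3 highest and 3 lowest fold changes over all members, catalytic or core subunits, isoform pairs, and members with an adjusted p under 0.05 in either fit. Genes outside this rule are stated to be chosen after their values were seen, or illustrate a count. The values of 1 member are not reported here by themselves, and it stays in the counts and medians.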

Additional observations from a re-analysis of the deposited data

How the results depend on the processing

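Several values depended on the tool, the block or a single mouse, and the cause was not tested. Without the block, edgeR with its filter called no gene in either direction. DESeq2 without the block called 298 genes higher and 61 lower, and with no filter on low counts edgeR called 23 higher. Under the replicate block, edgeR called 99 genes higher and 0 lower, and DESeq2 1030 higher and 225 lower. The blocked edgeR fit called 425 genes higher and 24 lower without mouse 57, 63 and 3 without mouse 58, and 2 and 0 without mouse 70, so leaving out a mouse gave 0 to 425 higher and 0 to 24 lower. Of the members, 1 was called higher, Cox6a2, with DESeq2, with no filter, with the block, with DESeq2 and the block and with the block without mouse 57 or 58 (0 to 1 over the mice left out), and 1 lower, Atp5g3, with DESeq2 and the block (0 to 0). The number of members below 0 in every mouse was 32 to 52 when a mouse was left out, with the highest count without mouse 70, 43 with library totals and 27 with DESeq2's size factors. These last alternatives were chosen after seeing the data.

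Named members that changed sign were close to 0. Without mouse 57, the log2 fold change was 0.09 for Cox4i1 (0.08 with the block), 0.15 for Cox6a1 (0.12), 0.10 for Cox7a2l (0.11) and 0.02 for Sdha (0.01). Without mouse 70 it was -0.08 for Cox6c (-0.09) and -0.08 for Cox8a (-0.16), and with the block without mouse 58 it was -0.03 and -0.10. With a mouse left out and no block, Cox6a1 ranged from -0.26 to 0.15, Cox8a from -0.08 to 0.41, Cox6c from -0.08 to 0.30, Cox4i1 from -0.20 to 0.09, Cox7a2l from -0.20 to 0.10 and Sdha from -0.34 to 0.02. With at least 10 counts in every library, Cox6a1 was at 0.00. The median log2 fold change over the members ran from -0.45 to -0.17 with a mouse left out (complex I -0.45 to -0.17, II -0.48 to -0.25, III -0.55 to -0.21, IV -0.38 to -0.03, V -0.50 to -0.24, assembly factors -0.38 to -0.16). The mean of the mouse medians ran from -0.47 to -0.15 (complex I -0.49 to -0.15, II -0.49 to -0.21, III -0.53 to -0.20, IV -0.34 to 0.04, V -0.52 to -0.22, assembly factors -0.41 to -0.14). The mean difference in the share of counts ran from -0.513 to -0.263 percentage points (complex IV -0.061 to -0.00391). Scaling by library totals moved the median of all genes in mouse 57 from 0.02 to 0.30 and that of the members from -0.99 to -0.69. It moved the members' medians from -0.07 to -0.15 in mouse 58 and from -0.02 to -0.10 in mouse 70, and those of complex IV from 0.16 to 0.08 and from 0.17 to 0.09. The block changed no other call.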
